A study of Mus musculus with 6 samples.

Results

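The 10 genes described here encode muscle proteins that answer to stretch and mechanical load: the muscle ankyrin repeat genes Ankrd1, Ankrd2 and Ankrd23, the LIM protein gene Csrp3, the small stretch-linked gene Smpx, the actin-binding genes Xirp1, Xirp2, Nexn and Flnc, and the co-chaperone gene Bag3. They were chosen by symbol, with their differences between the genotypes in these same 6 libraries already known, so the genotype differences below are a description and carry no test. They make up 10 of 33641 gene symbols and 42 of 105129 transcript rows in the deposited table. All 10 passed the filter on low values (1 TPM or more in at least 3 libraries), TPM being a level scaled by transcript length and to the same total in each library.

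The libraries were made from poly-A selected RNA of whole quadriceps, a thigh muscle of mixed fibre types, from male littermates aged 4 months with tissue taken at about ZT4, where ZT counts hours from lights on. One group, called Homo here, carries on both chromosomes the rs6190 allele, a copy of a human variant of the glucocorticoid receptor gene Nr3c1 placed in the mouse gene. The other group, called WT, carries the reference allele on both chromosomes. Each group has 3 libraries. The mice had heterozygous parents, no treatment is named, and the labels do not say outright that each library is 1 mouse, so the spread given is that between libraries. In bulk tissue, fewer cells of a type and less RNA per cell cannot be told apart.

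Ankrd1, Ankrd2 and Ankrd23 form the muscle ankyrin repeat protein family, whose members bind the N2A region of the giant spring protein titin and can also enter the nucleus, so that they link stretch of the sarcomere with gene expression. Ankrd1 is abundant in the heart and is induced in skeletal muscle by injury or overload, while Ankrd2 is known for slow fibres. The muscle LIM protein (Csrp3), filamin C (Flnc), nexilin (Nexn) and the Xin proteins (Xirp1, Xirp2) sit at Z-discs or at the attachment sites of actin, and Bag3 helps to clear filamins damaged by contraction.

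The libraries differed in ways that touch these genes. WT replicate 3 stood apart: across genes, which are not independent replicates, its log2 profile correlated with those of the other libraries at r of 0.951 to 0.965, while the others correlated among themselves at 0.972 to 0.987. The summed level of 11 slow fibre genes, all detected in all 6 libraries, ran from 1902 to 9714 TPM in Homo and from 245 to 1738 TPM in WT, with WT replicate 3 lowest and Homo replicate 2 highest. Depth, estimated from the steps between low TPM values, was 15.8 to 21.7 M fragments per library (M, 1000000). Nr3c1 was 20.01, 19.7 and 19.5 TPM in Homo and 11.5, 14.8 and 8.07 TPM in WT. The defining markers of the labelled tissue were present. WT replicate 3 was the highest library for the sum of the 6 skeletal muscle genes, with 120300 TPM beside 68660 to 84670 TPM elsewhere, and for that of the 12 fast fibre genes, with 231900 TPM beside 96660 to 131400 TPM elsewhere. Both lists hold Myh4 and Tnnt3. Mitochondrial transcripts went the other way, with 14.3% of TPM in WT replicate 3 beside 20.9% to 33.9% elsewhere. TPM sums to the same total in each library, and all 10 genes described here were lowest in WT replicate 3. The part of these sums in the values of the 10 genes was not tested.

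In the order of levels over the 6 libraries, Ankrd23 was the highest of the 10 genes, with a mean of 1261 TPM, and its lowest library (590 TPM) lay above the highest library of Smpx (478 TPM). Smpx followed with a mean of 406 TPM, Nexn with 288, Ankrd2 with 192, Xirp2 with 185, Csrp3 with 179, Flnc with 63.9, Bag3 with 44.1, Xirp1 with 24.2 and Ankrd1 with 8.60 TPM. Every other pair of neighbours in that order overlapped in range. Within libraries, Ankrd2 was above Xirp2 in 3 of 6 and Xirp2 above Csrp3 in 4 of 6, so the middle of the order was not resolved. Together the 10 genes took 0.320%, 0.360% and 0.324% of all TPM in Homo replicates 1, 2 and 3 and 0.229%, 0.222% and 0.138% in WT replicates 1, 2 and 3. The 3 Homo sums lay above the 3 WT sums, and Ankrd23 alone was 38.5% to 52.8% of the sum in each library.

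**Figure D1:**
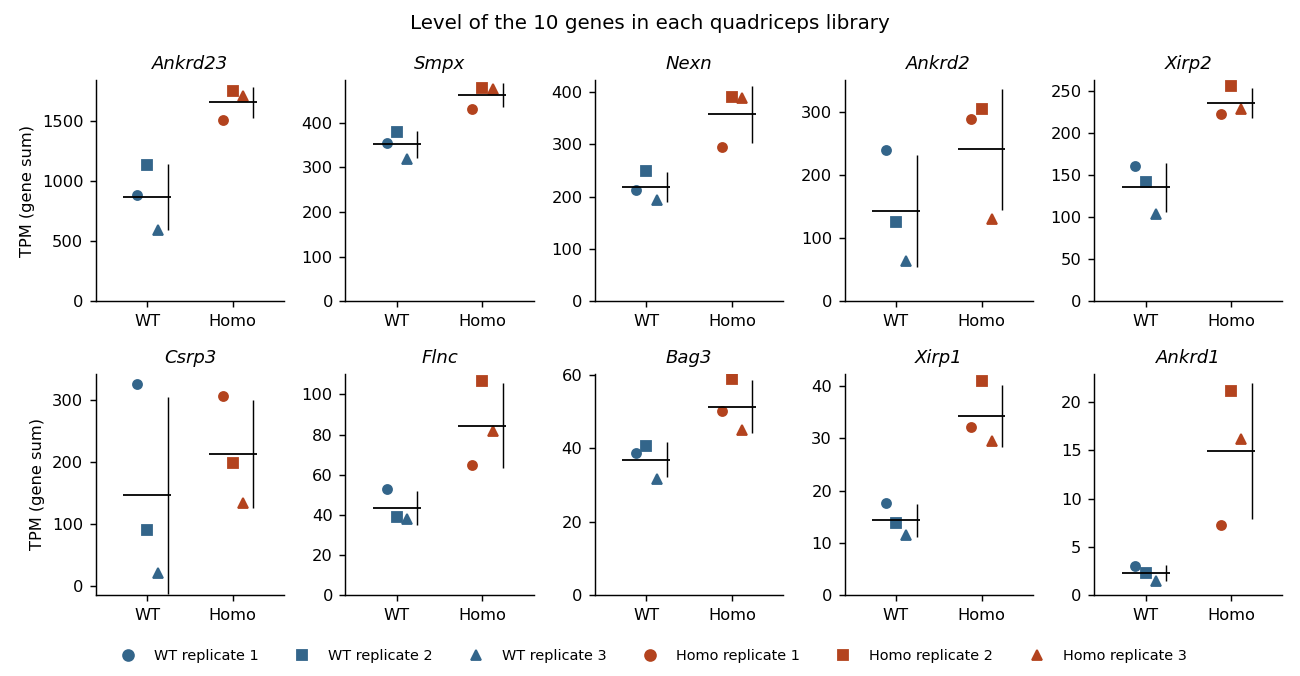
Level (TPM, summed over transcript rows) of each of the 10 genes in the 3 WT and 3 Homo libraries, 1 symbol per library, with the group mean as a horizontal line and the SD as a vertical one. The groups did not overlap for 8 genes, and they overlapped for Ankrd2 and Csrp3, whose WT libraries spread the most.

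The 250 bases before the annotated start of the ankyrin repeat genes are shown first. Ankrd1 and Ankrd2 are paralogs whose levels differed so much here, and Ankrd23 has a pair of annotated starts whose rows did not move alike. The sequences and the starts used for the windows are from RefSeq on GRCm38.p6, and the sequences read 5′ to 3′ on the gene's strand. For Ankrd1 the RefSeq start lies 66 nt downstream of the annotated start of the measured row. The last bases of its window therefore lie within that row. Capitals mark matches on either strand to M-CAT (CATTCC, the element bound by TEAD factors), a TATA box (TATAAA), a CArG box (bound by SRF), a MEF2 site, a paired heat shock repeat (GAANNTTC) or the glucocorticoid receptor repeat AGAACA. E-boxes (CANNTG) are not capitalised.
Ankrd1, chr19:36119845-36120094, minus strand: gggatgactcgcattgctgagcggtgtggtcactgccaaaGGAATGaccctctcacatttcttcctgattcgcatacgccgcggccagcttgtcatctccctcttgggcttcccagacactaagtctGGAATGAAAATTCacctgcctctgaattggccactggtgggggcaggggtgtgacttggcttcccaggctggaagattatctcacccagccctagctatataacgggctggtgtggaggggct
Ankrd2, chr19:42035777-42036026, plus strand: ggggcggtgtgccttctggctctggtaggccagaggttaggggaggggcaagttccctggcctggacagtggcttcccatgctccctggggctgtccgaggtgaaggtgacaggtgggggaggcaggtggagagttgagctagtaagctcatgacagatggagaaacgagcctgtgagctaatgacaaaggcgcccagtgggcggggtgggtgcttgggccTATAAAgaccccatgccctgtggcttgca
Ankrd23, upstream start, chr1:36536557-36536806, minus strand: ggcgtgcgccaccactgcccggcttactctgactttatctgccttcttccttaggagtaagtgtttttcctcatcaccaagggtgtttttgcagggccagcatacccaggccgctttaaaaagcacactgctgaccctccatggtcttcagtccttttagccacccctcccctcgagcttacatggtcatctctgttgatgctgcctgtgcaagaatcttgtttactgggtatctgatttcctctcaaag
Ankrd23, downstream start, chr1:36535740-36535989, minus strand: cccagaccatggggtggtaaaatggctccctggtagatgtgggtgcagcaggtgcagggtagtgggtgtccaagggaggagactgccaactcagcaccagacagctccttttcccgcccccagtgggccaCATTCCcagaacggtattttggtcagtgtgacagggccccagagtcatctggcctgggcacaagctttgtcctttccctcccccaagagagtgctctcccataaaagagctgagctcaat

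The Ankrd1 window held 2 matches to M-CAT, both on the opposite strand, 210 to 205 and 123 to 118 bases before the start, and the nearer one shared its last base with a paired heat shock repeat at 118 to 111. The same window held 1 E-box, 111 to 106 bases before the start. The Ankrd2 window held a TATA box 29 to 24 bases before the start and 3 E-boxes. The downstream Ankrd23 start had 1 M-CAT match, 120 to 115 bases before it, and 2 E-boxes, whereas the upstream window had no match to any of the 7 motifs. Of 32817 windows of the same length before annotated starts, 12.6% held M-CAT, 12.4% the TATA box, 6.69% the paired heat shock repeat, 2.92% a MEF2 site, 1.47% a CArG box, 16.1% AGAACA and 66.2% an E-box. The 8 genes with an entry had 11 windows, and M-CAT was in 3 of the 11 (of Ankrd1, Ankrd23 and Flnc). A match is a run of letters, not a shown binding site.

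Ankrd1 (chromosome 19, 36111961 to 36120099, minus strand, GRCm38) encodes the cardiac ankyrin repeat protein. Its level was 7.31, 21.2 and 16.2 TPM in Homo replicates 1, 2 and 3 and 3.06, 2.34 and 1.47 TPM in WT replicates 1, 2 and 3. The groups did not overlap, the lowest Homo library being above the highest WT library, and Homo replicate 1 was the lowest of its group. Homo averaged 14.9 ± 7.04 TPM and WT 2.29 ± 0.799 TPM (SD, n = 3 in each group, as for all means below), a ratio of 6.51 and a log2(TPM + 1) difference of 2.19 (SE 0.36). This was the largest difference of the 10, and 99.9% of the genes tested had a lower value. These levels correspond to an estimated 224, 498 and 388 fragments in Homo and 85.4, 57.7 and 39.2 in WT on its 1818-nt transcript, so counting error was small beside the spread between libraries. The 8 genes of regenerating muscle, led by Myod1, summed to 16.9, 40.9 and 47.0 TPM in Homo and 18.3, 22.5 and 26.03 TPM in WT. Myod1 alone averaged 20.53 ± 11.8 TPM in Homo and 11.55 ± 3.269 TPM in WT, with overlap. Myog went the other way, at 2.216 ± 0.6961 TPM in Homo and 3.476 ± 0.3222 TPM in WT, without overlap. The rest of the list had higher means in Homo. The part of these genes in the Ankrd1 difference was not tested.

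Ankrd2 (chromosome 19, 42036000 to 42045110, plus strand) encodes the ankyrin repeat protein of slow fibres. It was 289, 304 and 131 TPM in Homo and 240, 125 and 64.6 TPM in WT replicates 1, 2 and 3. The groups overlapped, since WT replicate 1 lay above Homo replicate 3. The means were 241 ± 95.8 and 143 ± 88.8 TPM, and the log2 difference of 0.85 (SE 0.51) was close to the pooled SD between libraries of 0.82. The difference was 0.38 without WT replicate 3 and 1.32 without WT replicate 1.

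Ankrd23 (chromosome 1, 36530188 to 36536883, minus strand) encodes the diabetes-related ankyrin repeat protein, known as a factor in fatty acid handling as well as a titin partner. It was 1508, 1749 and 1707 TPM in Homo and 881, 1134 and 590.0 TPM in WT. All Homo libraries were above all WT libraries, and the Homo libraries lay close together, with a coefficient of variation of 7.79% against 31.4% in WT. The means were 1655 ± 129 and 869 ± 272 TPM, a ratio of 1.91 and a log2 difference of 0.98 (SE 0.24).

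The 4 Ankrd23 rows are annotated from different starts. ENSMUST00000193083.5 begins at position 36536521, with 192 codons annotated, and ENSMUST00000054665.9 (306 codons) and ENSMUST00000194853.2 (273 codons, lacking a coding exon of 99 nt at 36531909 to 36532007) begin at 36535739. The upstream row was 1053, 1214 and 1153 TPM in Homo and 688, 800.2 and 504 TPM in WT. The downstream rows together were 452, 532 and 550.3 TPM in Homo and 190.5, 332 and 83.8 TPM in WT. The downstream rows thus held 29.97%, 30.4% and 32.2% of the gene's TPM in Homo and 21.6%, 29.2% and 14.2% in WT. The Homo libraries were all above the WT libraries in this share, but WT replicate 2 came within 1 percentage point of Homo replicate 1, and WT varied far more (21.7% ± 7.52 against 30.9% ± 1.21). The difference in the upstream row's share was -9.07 percentage points (Homo minus WT), and -5.39 without WT replicate 3. The rows also differ at the 3′ end. The last exon is 1454 nt in the upstream row, 1108 nt in ENSMUST00000054665.9 and 316 nt in ENSMUST00000194853.2. The first exon is 25 nt in the upstream row and 58 nt in the downstream rows. The part of the starts, of the 3′ ends and of the division of reads in these shares was not tested. The downstream start is the one whose window held the M-CAT match printed above.

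**Figure D2:**
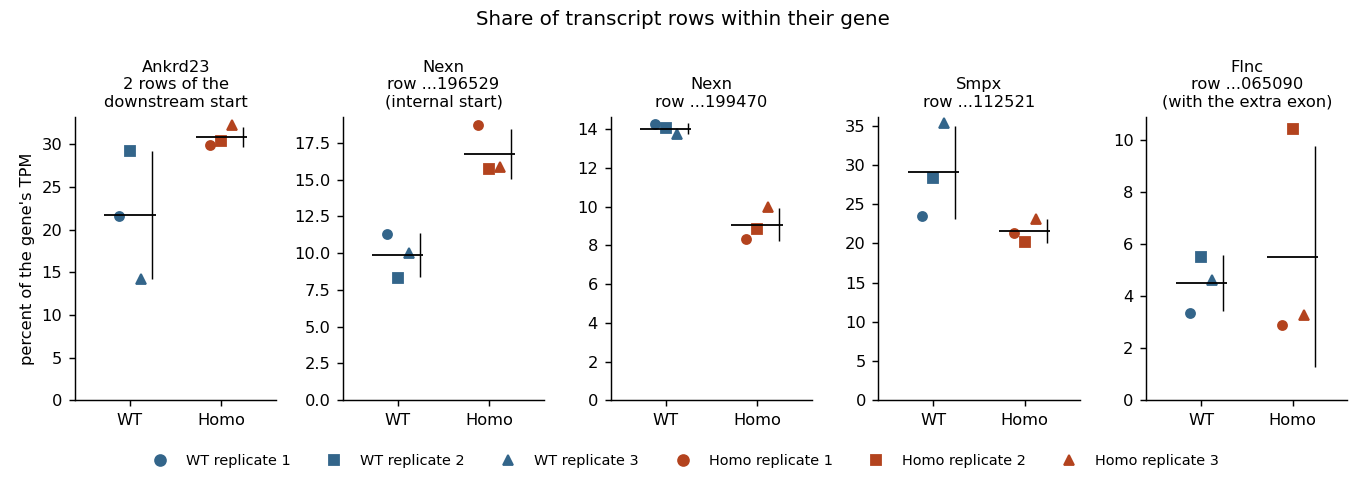
Share of the gene's TPM held by selected transcript rows in the 3 WT and 3 Homo libraries, with the group mean (horizontal line) and SD (vertical line). The Homo libraries all lay above the WT libraries for the downstream rows of Ankrd23 and for the Nexn row with an internal 5′ end. They lay below the WT libraries for the other Nexn row shown and for the Smpx row. For Flnc 1 Homo library stood out.

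Csrp3 (chromosome 7, 48830398 to 48848033, minus strand) encodes the muscle LIM protein of the Z-disc. It was 307, 199 and 134 TPM in Homo and 326, 90.6 and 21.7 TPM in WT replicates 1, 2 and 3. The groups overlapped fully, the highest library of all being WT replicate 1, and WT spanned 15.03-fold from lowest to highest. The log2 difference of 1.20 (SE 0.98) was below the pooled SD of 1.43. It was 0.22 without WT replicate 3 and 2.15 without WT replicate 1. Of the 4 Csrp3 rows, ENSMUST00000032658.13 (194 codons) held 98.7% to 99.6% of the level in each library. Its window, printed because it was the only one of the 11 windows with the glucocorticoid receptor repeat (here read on the opposite strand, 181 to 176 bases before the start), was as follows.
Csrp3, chr7:48848052-48848301, minus strand: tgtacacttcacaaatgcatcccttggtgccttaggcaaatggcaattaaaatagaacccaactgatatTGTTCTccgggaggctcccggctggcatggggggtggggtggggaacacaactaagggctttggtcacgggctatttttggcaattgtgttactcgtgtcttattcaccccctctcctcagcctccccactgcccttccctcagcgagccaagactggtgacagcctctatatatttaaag

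Smpx (chromosome X, 157698910 to 157752591, plus strand) encodes a small protein of the costamere, the lateral attachment of the sarcomere to the membrane. It was 430, 478 and 475 TPM in Homo and 355, 379 and 320 TPM in WT. The groups did not overlap, and the spread within them was the lowest of the 10 genes, at 5.80% and 8.57%. The means were 461 ± 26.7 and 351 ± 30.1 TPM, a ratio of 1.31. The log2 difference of 0.39 (SE 0.13) was only 0.13 above the median difference of all genes tested, which was 0.26, and 70.1% of genes had a lower value.

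The Smpx rows did not move alike. ENSMUST00000190091.6 and ENSMUST00000112521.7 differ in annotated start, and only the former has a noncoding 35-nt exon at 157751595 to 157751629. The part of the start and of this exon in the levels was not tested. ENSMUST00000190091.6, which begins at 157698973 and codes for 85 codons, was 289 ± 20.3 TPM in Homo and 197 ± 44.8 TPM in WT, without overlap. ENSMUST00000112521.7, which begins at 157699127 and codes for the same number of codons, was 99.3 ± 9.51 and 101 ± 15.5 TPM, with overlap. The share of the second row was 21.3%, 20.2% and 23.2% in Homo and 23.6%, 28.4% and 35.3% in WT, and WT replicate 1 was only just above Homo replicate 3. Another row, ENSMUST00000147283.7, annotated as a target of nonsense-mediated decay, held 11.3% ± 1.31 and 11.8% ± 4.07, with overlap. For ENSMUST00000112521.7, the difference of -7.54 percentage points in this share became -4.43 without WT replicate 3.

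Xirp1 (chromosome 9, 120013755 to 120023598, minus strand) encodes Xin, an actin-binding repeat protein found at the myotendinous junction and in muscle under repair. It was 32.2, 40.9 and 29.5 TPM in Homo and 17.6, 13.8 and 11.4 TPM in WT. All Homo libraries lay above all WT libraries, by a gap wider than the range within WT. The means were 34.2 ± 5.94 and 14.3 ± 3.14 TPM, a ratio of 2.40, the second largest of the 10. The log2 difference was 1.21 (SE 0.19), with a pooled SD of 0.27, and 1.07 without WT replicate 3.

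Xirp2 (chromosome 2, 67446002 to 67526614, plus strand), the longer relative of Xin, was 222, 255 and 229 TPM in Homo and 161, 142 and 104 TPM in WT. The Homo libraries again lay above those of WT. Homo averaged 235 ± 17.8 and WT 136 ± 29.2 TPM, with a log2 difference of 0.81 (SE 0.18). The row ENSMUST00000112347.7 (3283 codons in 9 exons) held 99.5% or more in each library. Its transcript, at 11979 nt, is the longest of the 19 rows that held at least 5% of their gene. The Xirp2 difference was 0.38 when a trend with transcript length was removed from each library. That step also moved the median of all genes from 0.26 to -0.0048. Above this median, the Xirp2 difference was 0.55 before and 0.39 after the trend was removed. The Xirp2 window is shown because it held the only MEF2 match among the 11 windows searched, 74 to 65 bases before the start.
Xirp2, chr2:67445752-67446001, plus strand: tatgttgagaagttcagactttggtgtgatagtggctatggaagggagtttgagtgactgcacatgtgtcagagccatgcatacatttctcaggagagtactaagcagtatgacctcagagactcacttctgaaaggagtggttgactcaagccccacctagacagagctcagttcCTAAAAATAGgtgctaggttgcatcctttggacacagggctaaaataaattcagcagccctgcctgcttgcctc

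Flnc (chromosome 6, 29433256 to 29461883, plus strand) encodes filamin C, the muscle filamin that crosslinks actin and is itself unfolded by contraction. It was 64.9, 107 and 81.7 TPM in Homo and 53.05, 39.1 and 37.7 TPM in WT. The groups did not overlap, and Homo replicate 2 was the highest. The means were 84.5 ± 21.1 and 43.3 ± 8.49 TPM, with a log2 difference of 0.94 (SE 0.21). It was 0.52 with the length trend removed, where the median of all genes was -0.0048 instead of 0.26.

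The main Flnc row, ENSMUST00000101617.8, has 47 exons, and ENSMUST00000065090.7 has 48. They differ by exon 31 of the latter, 99 nt of coding sequence (33 codons) at 29452799 to 29452897 on chromosome 6, GRCm38, which is printed because it is the only base sequence that separates these rows (GENCODE M21, plus strand, no capitals).
Flnc, exon 31: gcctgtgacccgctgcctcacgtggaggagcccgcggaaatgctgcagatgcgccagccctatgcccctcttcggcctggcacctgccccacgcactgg
The row with this exon was 1.87, 11.1 and 2.66 TPM in Homo and 1.79, 2.16 and 1.75 TPM in WT. Homo replicate 2 stood alone, with 10.4% of the gene's level in this row against 2.89% to 5.52% in the other 5 libraries. Homo replicate 2 was also the library with the highest slow fibre sum, and the part of fibre type in this exon's level was not tested.

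Nexn (chromosome 3, 152236982 to 152266350, minus strand) encodes nexilin, an actin-binding protein of the Z-disc. It was 295, 391 and 388 TPM in Homo and 213, 249 and 194 TPM in WT. Again the groups did not overlap, WT replicate 3 being lowest and Homo replicates 2 and 3 highest. Homo averaged 358 ± 54.5 and WT 219 ± 28.1 TPM, with a log2 difference of 0.70 (SE 0.17).

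Nexn had 16 transcript rows, 15 of them detected, and 5 held at least 5% of the level. The 607-codon row ENSMUST00000046045.12 was 105 ± 24.1 TPM in Homo and 81.4 ± 11.1 TPM in WT, and the groups overlapped. Its share of the gene was lower in Homo without overlap, at 26.1%, 31.0% and 29.9%, against 32.2%, 35.1% and 45.6% in WT. ENSMUST00000196529.4 is a row of 1460 nt. Its annotated 5′ end, at 152248264, lies inside an exon of the 607-codon row (152248180 to 152248368). Its coding length of 1417 nt is not a whole number of codons, so the model is incomplete, and this end is not a shown start. The row was 55.2, 61.3 and 61.6 TPM in Homo and 24.05, 20.7 and 19.4 TPM in WT. These values did not overlap and lay close together within each group, with a ratio of means of 2.77. Its share of the gene was 18.7%, 15.7% and 15.9% in Homo and 11.3%, 8.33% and 10.04% in WT. The share of ENSMUST00000199470.4 (536 codons) was also lower in Homo, at 8.31%, 8.87% and 9.98%, against 14.3%, 14.04% and 13.7% in WT. Its level was 32.6 ± 7.31 TPM in Homo and 30.7 ± 4.18 TPM in WT. ENSMUST00000200589.4, also an incomplete model (1064 coding nt, 354 whole codons), held 28.0% ± 0.270 in Homo and 20.3% ± 8.94 in WT, without overlap. WT replicate 3 was lowest at 10.3%, and WT replicate 1, at 27.5%, was only just below Homo replicate 3, at 27.8%. The group difference of 7.77 percentage points was 2.78 without WT replicate 3. ENSMUST00000196815.4, annotated as a target of nonsense-mediated decay, held 7.11% ± 1.49 and 7.73% ± 2.07, with overlap. The sources used here do not give how reads were divided among overlapping Nexn models.

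Bag3 (chromosome 7, 128523616 to 128546981, plus strand) encodes the co-chaperone that directs damaged filamin to autophagy. It was 50.1, 58.9 and 44.8 TPM in Homo and 38.6, 40.6 and 31.5 TPM in WT. The groups did not overlap, although Homo replicate 3 lay close to WT replicate 2. The means were 51.3 ± 7.12 and 36.9 ± 4.80 TPM, a ratio of 1.39. The log2 difference was 0.46 (SE 0.16), or 0.20 above that of all genes.

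All 10 genes had a higher mean in Homo, and 8 had all Homo libraries above all WT libraries, the exceptions being Ankrd2 and Csrp3. Over all 11099 genes tested, 34.7% had all Homo libraries above all WT libraries and 85.8% had a positive log2 difference. Without WT replicate 3 the count was again 8 of 10, beside 42.1% of all genes. The median log2 difference of the 10 genes was 0.89 beside 0.26 for all genes tested, and 0.63 beside 0.20 without WT replicate 3. Since the genes were chosen with these differences known, the counts are no evidence that the list stands apart. In the limma fit over all genes 0 of 11099 genes (0%) had an adjusted p under 0.05, while 2697 had an unadjusted p under 0.05. Of 29 transcript rows of these genes that passed the filter, 13 had all Homo above all WT libraries, beside 25.6% of 21165 rows tested. In the fit over all rows 9 (0.0425%) had an adjusted p under 0.05, and no test is given for the rows of the 10 genes.

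**Figure D3:**
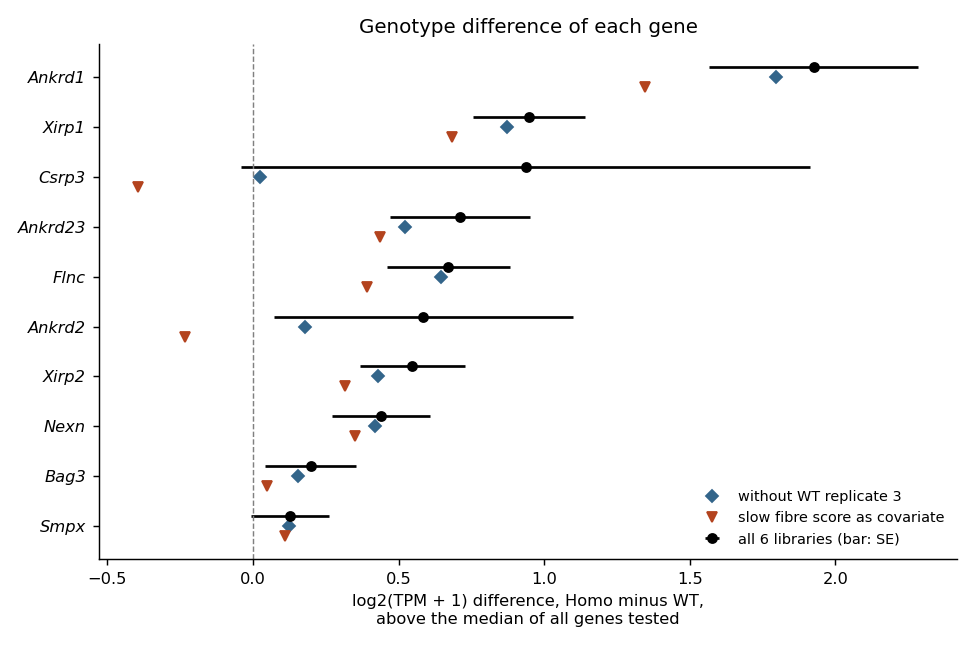
Log2(TPM + 1) difference, Homo minus WT, of each gene above the median of all genes tested, for all 6 libraries (circle, bar: SE), without WT replicate 3 (diamond) and with the slow fibre score as covariate (triangle). Ankrd1 lay between 1.35 and 1.93 in these 3 fits, and Ankrd2 and Csrp3 fell below the line of all genes, to -0.23 and -0.40, with the covariate.

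The libraries at the ends of the slow fibre range were at the ends for these genes too. Their mean log2(TPM + 1) was 6.45, 8.87 and 6.79 in Homo replicates 1, 2 and 3 and 6.37, 5.78 and 3.41 in WT replicates 1, 2 and 3. All 10 genes were lowest in WT replicate 3, as the slow fibre genes were, and 9 were highest in Homo replicate 2, as the slow fibre genes were, the exception being Csrp3, which was highest in WT replicate 1. With the slow fibre mean as a covariate, the log2 difference was -0.077 for Ankrd2 and -0.24 for Csrp3. It was 1.50 for Ankrd1, 0.84 for Xirp1, 0.59 for Ankrd23, 0.55 for Flnc, 0.51 for Nexn, 0.47 for Xirp2, 0.27 for Smpx and 0.21 for Bag3, where all genes had a median of 0.16. The covariate itself differed between the groups, so its part and that of genotype cannot be told apart in 6 libraries.

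**Figure D4:**
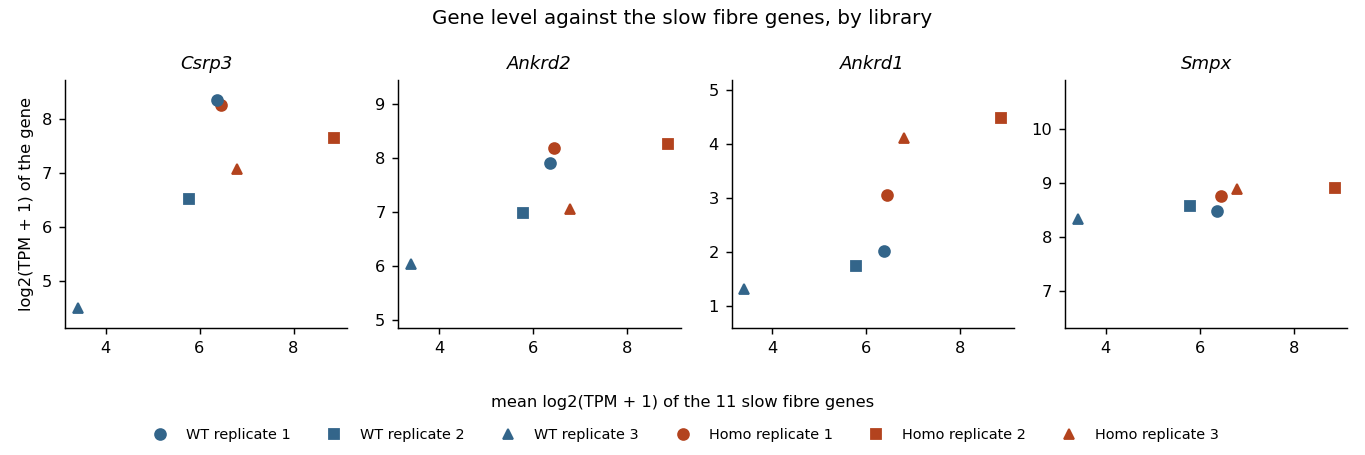
Log2(TPM + 1) of Csrp3, Ankrd2, Ankrd1 and Smpx (vertical axes, all of the same span) against the mean log2(TPM + 1) of 11 slow fibre genes, 1 symbol per library. WT replicate 3 is lowest on both axes in each panel, at 3.41 for the slow fibre genes, and Smpx varies little over the same range.

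Markers of other cells were given by library sums. Tendon and myotendinous junction genes (7, all detected in every library, led by Thbs4) summed to 25.5 to 37.3 TPM in Homo and 26.2 to 34.07 TPM in WT, ranges that overlapped. Fibroblast genes (5, led by Dcn) were 157 to 189 and 79.7 to 226 TPM, and satellite cell genes (3, led by Myf5) 1.09 to 1.44 and 0.904 to 1.65 TPM. Smooth muscle and pericyte genes (5, led by Rgs5) were 69.0 to 77.3 TPM in Homo and 47.5 to 65.2 TPM in WT, and Schwann cell genes (5, led by Pmp22) 28.8 to 105 and 16.1 to 25.1 TPM, both without overlap. Endothelial genes (4, led by Pecam1) were 31.6 to 37.7 and 25.04 to 35.5 TPM, adipocyte genes (5, led by Fabp4) 147 to 186 and 155 to 177 TPM, immune genes (5, led by Cd68) 4.30 to 6.48 and 2.24 to 4.67 TPM, and blood genes (5, led by Hbb-bs) 536 to 781 and 476 to 851 TPM. No marker gene of these lists was at 0 in all libraries. The part of these cells in the values of the 10 genes was not tested.

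The likeness of other genes was measured as the root-mean-square (RMS) difference between log2(TPM + 1) profiles over the 6 libraries, each centred on its own mean, among 11099 genes. Nearest to Ankrd1 were Styx (RMS 0.22), Arid5a (0.31) and Mustn1 (0.33), beside a median of 1.07 for all genes. Styx was 2.955, 6.57 and 6.08 TPM in Homo and 0.378, 0 and 0 TPM in WT. It passed the filter on low values through the Homo libraries alone. Mustn1, a small muscle nuclear protein gene, was 115, 225 and 263 TPM in Homo and 86.7, 46.4 and 29.9 TPM in WT, so its groups did not overlap either. Nearest to Ankrd2 were Gm18258 (0.17), Dgat2 (0.19) and Lpl (0.20), of which Dgat2 makes triglyceride and Lpl releases fatty acids from lipoproteins. Nearest to Ankrd23 were Ahnak2 (0.047), Hipk2 (0.049) and the receptor kinase gene Axl (0.070).

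Csrp3 had no close neighbour: Pde2a, the nearest, was at 0.50, followed by Mfsd7b (0.53) and Fxyd6 (0.56). Nearest to Xirp1 were Ptpn3 (0.14), Gm14288 (0.14) and Evc (0.16), and among those nearest to Xirp2 were Golga3 (0.054) and Pcf11 (0.058). Nearest to Nexn were Nfkb2, Clk4 and Cyb5r3 (0.066 to 0.068), and to Flnc Slc20a1, Inca1 and Acaca (0.084 to 0.088). Snx19 (0.012), Gja5 (0.029) and Sel1l (0.029) were nearest to Smpx, and Ppm1m, Rbms2 and Mical3 (0.044 to 0.046) to Bag3. A small distance is easier to reach for a gene that varies little, as Smpx does. Among the 10 themselves the closest profiles were Smpx and Bag3 (0.13), and the farthest Ankrd1 and Csrp3 (1.25). The paralogs Ankrd1 and Ankrd2 were 0.98 apart and Ankrd2 and Ankrd23 0.60 apart, whereas Xirp1 and Xirp2 were 0.23 apart.

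Genes that work with the 10, none of them a member, were taken from 6 lists, and 0 of the genes in any list passed the threshold over all genes in either direction (limma, adjusted p under 0.05). At an unadjusted p under 0.05, 23.7% of all genes tested were higher in Homo and 0.55% were lower. Among partners at the Z-disc (20 tested), 11 reached that level as higher and 0 as lower, with a median log2 difference of 0.51. The gene with the largest difference there was Myoz2, a calcineurin-binding Z-disc gene that is also in the slow fibre list, at 219, 558 and 236 TPM in Homo and 158, 104 and 38.7 TPM in WT (log2 difference 1.82, SE 0.57). Tcap, the titin cap protein gene and the highest in level, was 5544 ± 417 and 4819 ± 988 TPM, and Actn3, the actinin of fast fibres, had the lowest difference, -0.58 (SE 0.31).

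Among titin and I-band partners (12 of 13 tested), 4 (Fhl1, Neb, Trim55 and Ttn, named after their values were seen) were higher and 0 lower at an unadjusted p under 0.05, with a median of 0.26, the same as all genes. Fhl1, a LIM protein gene linked to titin, had the largest difference, at 977, 1400 and 961 TPM in Homo and 600.4, 404 and 78.8 TPM in WT, without overlap (log2 difference 2.03, SE 0.72). Palld, which encodes palladin, was 12.9 ± 1.24 and 16.2 ± 1.10 TPM and had the lowest (-0.31, SE 0.14). Neb, which encodes nebulin and was the highest in level, was 1851 ± 165 and 1248 ± 97.0 TPM.

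Among the genes of chaperone-assisted autophagy, the pathway of Bag3 (13 tested), 6 were higher and 0 lower at an unadjusted p under 0.05, with a median of 0.33. Hspa1a, an inducible heat shock gene, had the largest difference, at 5.74, 11.9 and 4.53 TPM in Homo and 2.88, 3.24 and 1.46 TPM in WT (log2 difference 1.19, SE 0.34). Reads of Hspa1a and its near-identical neighbour Hspa1b may be divided uncertainly. Cryab, a small heat shock protein gene, was 1312 ± 312 and 752 ± 305 TPM, and Stub1, the ubiquitin ligase that works with Bag3, had the lowest difference (-0.030, SE 0.16). Among YAP-TEAD and SRF-MRTF genes (18 of 19 tested), 5 (Amotl2, Cyr61, Lats2, Tead1 and Vgll2) were higher and 1 (Mkl1, a cofactor of SRF) lower at that level, these also named after their values were seen, with a median of 0.34. Vgll2, a TEAD cofactor gene, had the largest difference (0.96, SE 0.38), and Actc1, the cardiac actin gene, the lowest (-1.65, SE 1.28), where WT replicate 3 alone was at 363 TPM and the other libraries ranged from 12.0 to 18.9 TPM. Nppb was listed at 0 in all libraries.

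Of the 11 slow fibre genes, 1 (Myoz2) was higher and 0 lower at an unadjusted p under 0.05, although their median was 2.25, since they varied widely within groups; Myh7, the slow myosin gene, had the largest difference (2.91, SE 1.30), Casq2 the lowest (1.38) and Myl2 the highest level. Of the 12 fast fibre genes, 2 (Myh1 and Myh2) were higher and 0 lower, with a median of -0.39, Myh1 having the largest difference (1.77), Pvalb the lowest (-0.65) and Tnnt3 the highest level. Without WT replicate 3 these medians were 1.25 and -0.051, beside 0.20 for all genes, and 0 genes of any list passed the threshold.

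**Figure D5:**
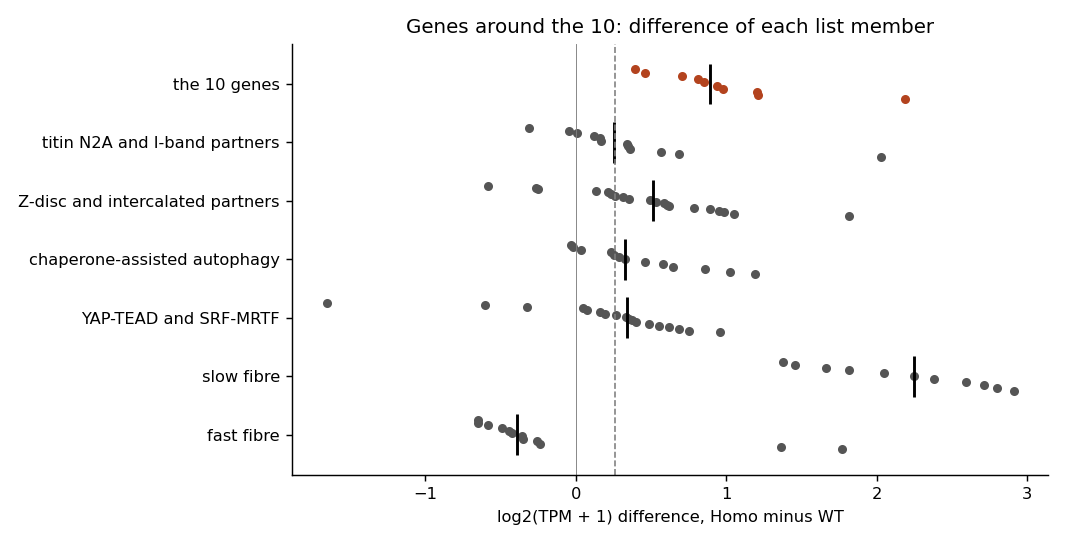
Log2(TPM + 1) difference, Homo minus WT, of the 10 genes and of each tested gene of 6 lists, with the median of each list as a vertical bar and that of all genes tested (0.26) as a dashed line. The median was 0.89 for the 10 genes, 0.51 for the Z-disc list, 2.25 for the slow fibre list and -0.39 for the fast fibre list.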

How the data were processed

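Poly-A selected RNA of mouse quadriceps was sequenced in 3 Homo and 3 WT libraries, grouped by the titles in the labels. The authors deposited a table of TPM, with 1 row per Ensembl transcript and 1 column per library. Each library summed to 1000000. FastQC, Trimmomatic, HISAT2, kallisto and the build mm10 are named in the submitters' processing notes, without versions or roles. Each column matched 1 library.

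TPM was summed per gene symbol and transformed to log2(TPM + 1), which understates differences of low genes. Genes that reached 1 TPM in 3 or more of the libraries were fitted with limma 3.58.1 (R 4.3.3; trend, robust, genotype as the only term), and p-values were adjusted by Benjamini-Hochberg over all 11099 genes, and over 21165 transcripts in a separate fit. The fit was checked on simulated data drawn independently for each gene, which hold no shift shared by the genes of a library. The test had been written for counts or TPM, and the branch for TPM was used.

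TPM carries no depth. For genes with a single transcript no shorter than 1500 nt, low values times effective length were divided by a constant per library. Then 67.5% to 69.5% of 669 to 711 values lay within 0.03 of a whole number, beside 6% by chance for a setting fixed in advance. The constant and the length offset were those that gave the highest such share, so 6% is not the chance level of the search. This is an estimate, used only for the fragments of Ankrd1.

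Positions and transcript structures are from GENCODE M21 on GRCm38, the assembly that mm10 names, and the authors may have used another annotation. All 42 transcript rows matched it, 41 with the version number. Sequences before starts are from RefSeq for 8 of the 10 genes, and the rest are not shown. Motifs were searched in the 250 bases before the start, on both strands.

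The members and lists were chosen with earlier results of these data known. The text names the 10 genes, the 3 nearest profiles of each (1 of them is not reported here), transcript rows with a mean of at least 5% of the gene in either group, and for each list the genes with the largest and smallest difference and the highest level. Python 3.11.15, numpy 2.4.6, pandas 2.3.3 and matplotlib 3.10.9 were used.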

Additional observations from a re-analysis of the deposited data

How the results depend on the processing

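Removal of a transcript length trend and the counts without WT replicate 3 were chosen after seeing the data. Over 15 alternatives the log2 difference was positive in every fit for Ankrd1, Ankrd23, Xirp1, Xirp2, Nexn, Flnc, Smpx and Bag3, lowest for Smpx after median centring (0.091). It turned for Ankrd2 with the slow fibre covariate (-0.077) and for Csrp3 with that covariate (-0.24) and with array weights (-0.15), which gave WT replicate 3 a weight of 0.20. The cause was not tested. Relative to all genes, the median of the 10 was 0.63. It was 0.33 with the covariate and 0.43 to 0.75 leaving out each library, lowest without WT replicate 3. The median of all genes moved from 0.26 to -0.0070 with quantile normalization, to -0.037 with median centring and to -0.0048 with the length trend removed.

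Genes past the threshold numbered 0, but 810 with array weights and 0 to 2 leaving out each library (2 without WT replicate 1, 1 without WT replicate 2). Isoforms past it numbered 9, but 3 with quantile normalization, 5 with median centring, 4 with a pseudocount of 0.1, 0 without a filter, 14 with array weights, and 0 to 36 leaving out each library (36 without WT replicate 1, 1 without Homo replicate 3, 0 without Homo replicate 1, Homo replicate 2 or WT replicate 3). With array weights 2 titin and I-band genes (Ttn, Neb), 6 Z-disc genes, 2 autophagy genes (Synpo2, Dnajb6), 1 YAP-TEAD and SRF-MRTF gene (Cyr61) and 1 fast fibre gene (Myh1) passed; in every other alternative each list had 0.

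Relative to all genes, the titin list median of -0.0071 turned to 0.042 with quantile normalization, 0.14 without a filter, 0.16 with array weights, 0.19 with the covariate, and -0.161 to 0.154 leaving out each library (-0.161 without WT replicate 2, 0.013 without Homo replicate 3, 0.15 without WT replicate 3). With the covariate the YAP-TEAD and SRF-MRTF median was -0.020, the slow fibre median -0.14 and the fast fibre median 0.076.

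With the replicate number as a block, 0 genes and 0 isoforms passed. Deviations of same-numbered libraries correlated at -0.071, 0.061 and -0.013 across genes, and those of differently numbered libraries at -0.139 to 0.131. With 3 libraries per group these values cannot show whether the numbers pair the libraries.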
